A study of Mus musculus with 568 samples.

Results

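Kdm6a, Kdm5c, Ddx3x and Eif2s3x are X-linked mouse genes that are known from other work to escape X-inactivation. They were chosen by name from that prior knowledge and not by a measured value. All 4 are among the 16335 genes with bulk total expression, of which 708 are X-linked, and among the 15718 genes with single-cell read counts. Kdm6a alone is among the 1972 genes with a bulk allelic ratio that were analysed here (1302 X-linked genes and 670 genes of chromosome 13), so bulk ratios of Kdm5c, Ddx3x and Eif2s3x were not analysed here. All 4 are among the 219 X-linked genes with an allelic ratio in single cells.

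In female mammals 1 of the 2 X chromosomes is silenced by the non-coding RNA Xist, which coats the chromosome from which it is transcribed and is followed by repressive chromatin marks. Genes that escape keep being transcribed from the silenced chromosome, usually at a lower level than from the active one, and many of the best known cases have a related copy on the Y chromosome. Kdm6a (UTX) removes methyl groups from lysine 27 of histone H3 and Kdm5c from lysine 4, Ddx3x is a DEAD-box RNA helicase with roles in translation, and Eif2s3x is the gamma subunit of eIF2, the factor that brings the initiator tRNA to the ribosome. In female germ cells the inactive X is reactivated during development.

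The cells are a female mouse hybrid line, XRep, with 1 X chromosome from 129S1/SvImJ (mus) and 1 from CAST/EiJ (cas). Every group carries the same alleles. The mus X has a truncation of Tsix, which makes it the X that is inactivated, and a GFP reporter in Hprt. The cas X has a tdTomato reporter in Hprt, the Rosa26 locus holds the rtTA activator, and piggyBac transgenes make Prdm14, Blimp1 and Tfap2c inducible by doxycycline. The bulk data hold 4 libraries for each of 4 groups: embryonic stem cells (ESCs), epiblast-like cells (EpiLCs), and 2 kinds of day 5 primordial germ cell-like cells (PGCLCs) made with 1.5 µg/ml doxycycline, sorted as SSEA1 and CD61 positive and split into XGFP+ and XGFP- cells. ESCs grew in serum with LIF and passed through 2i with LIF before induction, EpiLCs were grown for 4 days, and neither was sorted. The PGCLC split follows a reporter on the mus X itself. Single cells came from ESCs and from rOvaries, aggregates of PGCLCs with gonadal and mesonephric somatic cells of E13.5 female embryos kept for 6 days. The study's methods name CD1/ICR as the mouse strain of the somatic cells. All sorted rOvary cells were positive for the tdTomato reporter. Cells named XGFP+ constitutive descend from XGFP+ PGCLCs, and XGFPhigh, XGFPintermediate and XGFPlow cells were sorted by reporter level from rOvaries made with XGFP- PGCLCs.

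The bulk libraries held 29.8 M to 46.5 M reads on genes. The study's methods describe 2 clones of the line with 2 technical replicates each, while the labels number the libraries 1 to 4 without naming a clone. The p-values below therefore measure only the spread between these libraries, which may be partly technical. Each of the 5 ESC markers, 4 EpiLC markers and 5 PGCLC markers looked up had its highest mean in the group it marks. The Y-linked copies of the 4 genes were not analysed here.

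In mm10, Kdm6a (ENSMUSG00000037369) lies at chrX:18162575-18279936 on the plus strand, Kdm5c (ENSMUSG00000025332) at chrX:152233020-152274535 on the plus strand, Ddx3x (ENSMUSG00000000787) at chrX:13280970-13294052 on the plus strand, and Eif2s3x (ENSMUSG00000035150) at chrX:94188707-94212862 on the minus strand. All are protein-coding, and no other annotated gene overlaps any of them. The 30 bases from 35 to 6 bases before each RefSeq start (GRCm38.p6, the same coordinates as mm10) are shown because Kdm5c, Ddx3x and Eif2s3x were lower in PGCLCs than in ESCs while Kdm6a was not called, so that the letters before their starts can be set side by side. For Kdm5c, Ddx3x and Eif2s3x these bases lie inside the gene spans above, which begin further upstream. All positions before or after a start are counted from the RefSeq start. Capitals mark a motif, and the text is 5′ to 3′ on the strand of the gene.
Kdm6a, chrX:18162540-18162569, plus strand: acaaaggtCACGTGaggcgaggggctgctc
Kdm5c, chrX:152233192-152233221, plus strand: cggagggatctggtttgttgtggtgaggta
Ddx3x, chrX:13280987-13281016, plus strand: cggTATATAAggtcggtggccgcgcggtgc
Eif2s3x, chrX:94212657-94212686, minus strand: gcctacggtatgtcaggcggctgccgagca

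Motifs were searched on both strands of the 300 bases around each start (250 before and 50 after), with letters chosen after the sequences had been seen. Ddx3x alone holds TATATAA, 32 bases before its start, a motif found in 3.24% of 32851 such windows. Kdm6a alone holds the E-box CACGTG, which 7.15% of windows have. Kdm5c and Eif2s3x share AAGATGGC, present in 2.75% of windows, at 28 and 16 bases after the start, and in Eif2s3x it overlaps the annotated start codon. GGGCGG is found in Kdm6a, Ddx3x and Eif2s3x, and in 35.7% of all windows. The windows of the 4 genes in the order above contain 21, 13, 25 and 21 CpGs, against a median of 7 over all windows. A match is a description of the letters and was not tested for binding.

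Total expression was the sum over both X chromosomes, as reads divided by a size factor per library (normalized reads). On this scale per kilobase of exon, which allows genes to be compared, Ddx3x was the most abundant of the 4 in every group, with group means from 5141 to 10608. Eif2s3x ranged from 1927 to 4148, Kdm5c from 1400 to 2201 and Kdm6a from 961 to 1028. Kdm6a was thus the lowest and the least variable across stages. Differences between groups were tested with limma on log2(normalized reads + 1) over 16281 genes, with all 16 libraries in 1 model and Benjamini-Hochberg adjustment, and were called at an FDR below 0.001. The 6 comparisons share their groups, so their results are not independent of each other. In bulk samples, fewer cells of a type and less RNA per cell cannot be told apart.

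**Figure D1:**
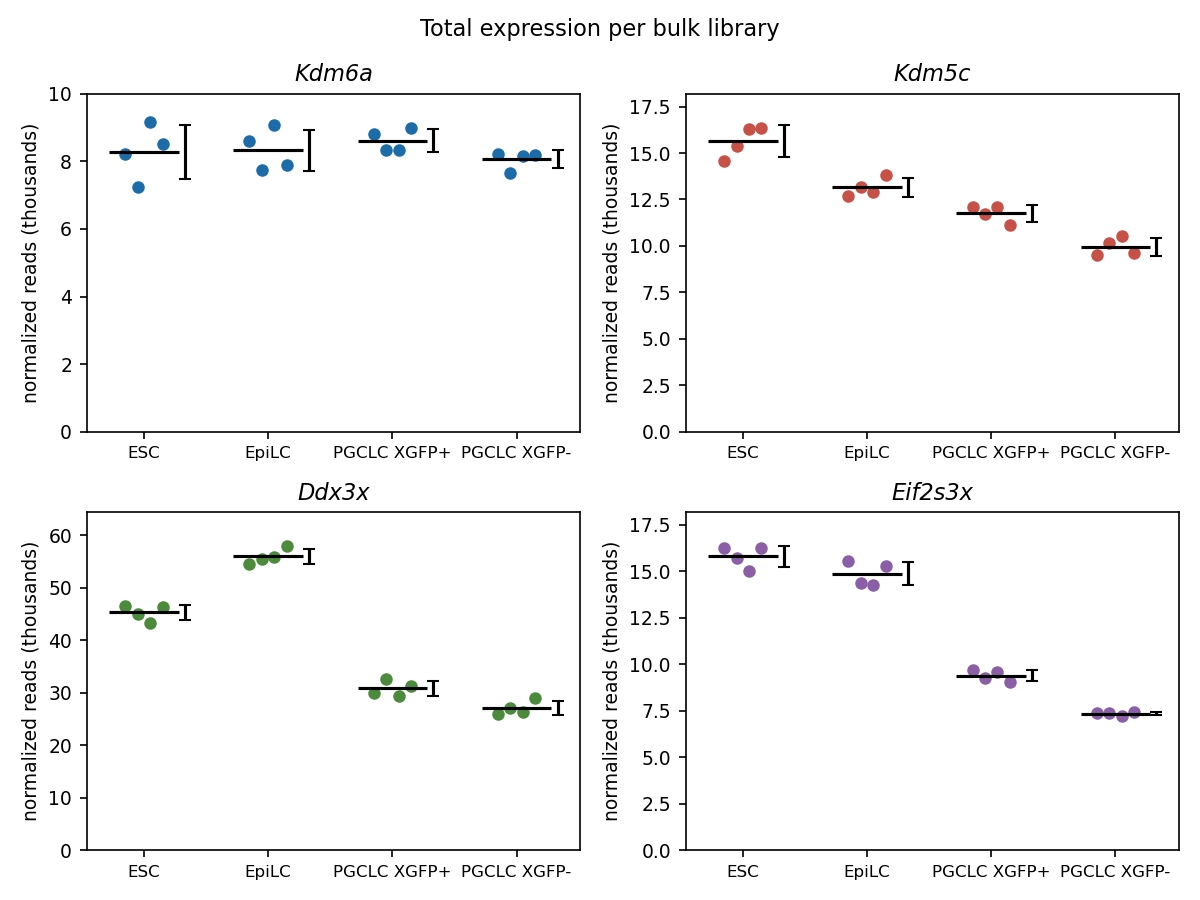
Total expression of the 4 genes per bulk library, in normalized reads (y axis from 0) for the 4 groups (x axis). Points are the 4 libraries of a group, the horizontal line is their mean and the bar beside it 1 SD. Kdm6a groups lie close together, between means of 8060 and 8618, while both PGCLC groups lie below ESCs and EpiLCs for Kdm5c, Ddx3x and Eif2s3x.

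Kdm6a, the H3K27 demethylase, had 8219, 7245, 9172 and 8506 normalized reads in ESC libraries 1 to 4. EpiLC libraries had 8599, 7746, 9066 and 7883, XGFP+ PGCLCs 8812, 8326, 8347 and 8989, and XGFP- PGCLCs 8233, 7662, 8162 and 8184. ESCs averaged 8286 ± 800 and EpiLCs 8324 ± 620, while XGFP+ PGCLCs averaged 8618 ± 334 and XGFP- PGCLCs 8060 ± 267 (SD, n = 4). ESC and EpiLC libraries overlapped with all other groups, whereas every XGFP- library was below every XGFP+ library. The log2 differences over the 6 comparisons lay between -0.10 and 0.06, and none was called by limma (lowest FDR 0.242, with 0 of 6 at an unadjusted p below 0.05), nor by edgeR or DESeq2. The 95% interval for XGFP- against XGFP+ PGCLCs ran from -0.24 to 0.04 on the log2 scale. It held 0, so both no difference and one as low as -0.24 were compatible with these libraries.

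Kdm5c, the H3K4 demethylase, had 14548, 15389, 16312 and 16342 normalized reads in ESC libraries and 12697, 13146, 12925 and 13838 in EpiLCs. XGFP+ PGCLCs had 12097, 11728, 12096 and 11125, and XGFP- PGCLCs 9503, 10154, 10538 and 9611. The groups were ordered ESC, EpiLC, XGFP+, XGFP- from high to low, and no library of one group overlapped with the next. Kdm5c was lower in EpiLCs than in ESCs by a log2 difference of -0.25 (SE 0.0519, limma FDR 0.000324). XGFP- PGCLCs were below XGFP+ PGCLCs by -0.24 (SE 0.0519, FDR 0.00086). These 2 calls depended on which libraries were included. The first was lost without EpiLC library 1, 2 or 3 or ESC library 3 or 4 (FDR up to 0.00162), and the second without XGFP+ library 1, 2 or 3 or XGFP- library 1, 2 or 4 (FDR up to 0.00455), although the direction held each time. The step from EpiLCs to XGFP+ PGCLCs was -0.16 and did not pass (FDR 0.0091). Against ESCs, the differences of -0.41 in XGFP+ (FDR 1.17e-06) and -0.65 in XGFP- PGCLCs (FDR 1.44e-09) were called.

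Ddx3x, the RNA helicase, had 46447, 45069, 43237 and 46368 normalized reads in ESCs and 54548, 55440, 55884 and 58042 in EpiLCs. XGFP+ PGCLCs had 29861, 32568, 29449 and 31341, and XGFP- PGCLCs 26014, 27176, 26338 and 28979. Ddx3x was the only one of the 4 genes to be called higher in EpiLCs than in ESCs, by 0.31 on the log2 scale (SE 0.05, limma FDR 2.62e-05), and the libraries did not overlap. It was lower than in EpiLCs by -0.86 in XGFP+ (FDR 2.13e-11) and by -1.05 in XGFP- PGCLCs (0.484-fold, FDR 1.03e-12). Every XGFP- library was below every XGFP+ library, but the difference of -0.18 (SE 0.05, 95% interval -0.29 to -0.08) did not pass in limma (FDR 0.00542), while DESeq2 called it (FDR 0.00039).

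Eif2s3x, the eIF2 subunit, had 16238, 15700, 15041 and 16275 normalized reads in ESCs and 15536, 14399, 14292 and 15310 in EpiLCs, which overlapped. XGFP+ PGCLCs had 9674, 9247, 9562 and 9029, and XGFP- PGCLCs 7366, 7386, 7211 and 7424, so that the PGCLC groups were apart from ESCs and EpiLCs and from each other. EpiLCs and ESCs differed by -0.09 (SE 0.0446, limma FDR 0.0914), which did not pass. Eif2s3x was lower than in EpiLCs by -0.67 in XGFP+ (FDR 1.55e-10) and by -1.02 in XGFP- PGCLCs (0.494-fold, FDR 3.12e-13). It also had the largest difference of the 4 genes between XGFP- and XGFP+ PGCLCs, -0.35 (SE 0.0446, 0.784-fold, FDR 4.05e-06), a call that held without each library in turn.

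The counts of calls are read beside the share of all tested genes that was called. Between EpiLCs and ESCs, 2 of the 4 genes were called (1 higher and 1 lower), where 47.8% of all tested genes were called. The background was 61.9% for XGFP- PGCLCs against EpiLCs (3 of 4, all lower), 57.3% for XGFP+ PGCLCs against EpiLCs (2 of 4, both lower), 49.9% for XGFP+ PGCLCs against ESCs (3 of 4, all lower) and 59.4% for XGFP- PGCLCs against ESCs (3 of 4, all lower). In these 4 PGCLC comparisons, in the same order, 31.9%, 29.5%, 24.9% and 29.6% of all tested genes were called lower. Of X-linked genes, the shares called lower were 41.2%, 27.9%, 28.8% and 45.2%. For XGFP- against XGFP+ PGCLCs, 2 of 4 were called, both lower, against 23.8% of all genes and 38.5% of X-linked genes. There the shares called lower were 12.5% of all genes and 34% of X-linked genes.

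The 706 tested X-linked genes had a median log2 difference of -0.37 between XGFP- and XGFP+ PGCLCs, autosomal genes of 0.03 and all tested genes of 0.01. The 4 genes, at -0.10, -0.24, -0.18 and -0.35, all lay closer to 0 than that X-linked median. Kdm6a was above 68.3% of X-linked genes in this comparison, Ddx3x above 62.3%, Kdm5c above 58.5% and Eif2s3x above 51.6%. Between XGFP- PGCLCs and ESCs the X-linked median was -0.48. Kdm6a, at -0.04, was above it there, while Kdm5c, Ddx3x and Eif2s3x, at -0.65, -0.74 and -1.11, were below. XGFP+ PGCLCs had an X-linked median of 0.05 against EpiLCs, yet Ddx3x and Eif2s3x were at -0.86 and -0.67.

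**Figure D2:**
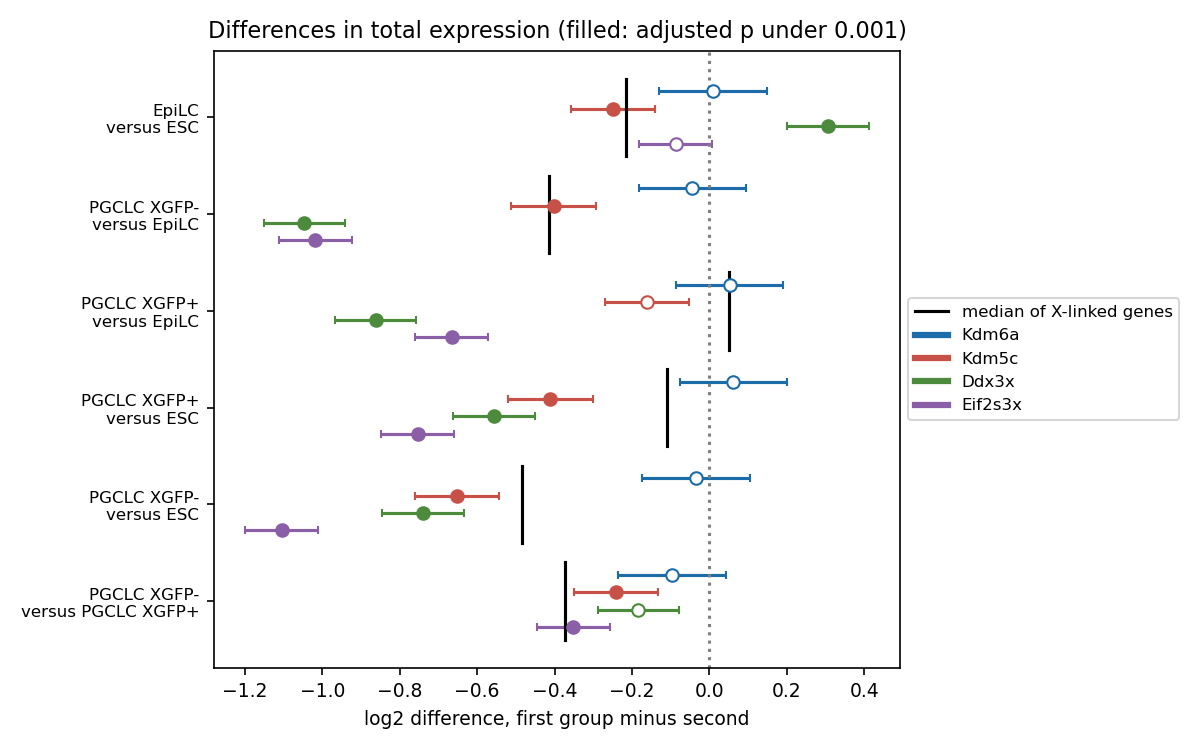
Log2 difference in total expression of each gene (x axis, first group minus second) in the 6 comparisons (y axis), with 95% intervals from limma. Filled points have an adjusted p below 0.001, and the black bar is the median of the 706 tested X-linked genes. Kdm6a sits near 0 throughout, while Ddx3x and Eif2s3x lie below the X-linked median in the 4 comparisons of PGCLCs with EpiLCs or ESCs.

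Other genes known to escape in mouse went in both directions. Between XGFP- and XGFP+ PGCLCs, 10 such genes were tested, of which 2 rose and 2 fell, with a median log2 difference of 0.15. Ftx (1.72) and Car5b (1.48) were the highest, and 1810030O07Rik (-0.40) and Utp14a (-0.38) the lowest, all 4 called. Of 8 X-linked genes known to be silenced in somatic cells, 3 were lower and none higher at this FDR, with a median of -0.42. The lowest of these were G6pdx (-0.94) and Atrx (-0.87), both called, and the highest was Phf6 (0.30), which was not called. Of all tested X-linked genes, 34% were called lower and 4.53% higher between these PGCLCs, so 3 lower of 8 was near that share. In XGFP- PGCLCs against EpiLCs, the first list had 4 higher and 3 lower of 10, and the second 4 higher and 3 lower of 8. There, 18.1% of all tested X-linked genes were called higher and 41.2% lower.

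Autosomal partners and relatives of the 4 genes were looked up beside them. Between XGFP- and XGFP+ PGCLCs, 3 of these 11 genes fell and 1 rose, with a median of 0.03. Of all tested genes, 12.5% were called lower and 11.3% higher there. D1Pas1, an autosomal retrocopy of Ddx3x, had the lowest value (-2.86), and reads of the 2 copies may be split between them. Kdm5b (-0.75), a relative of Kdm5c, and Eif2s2 (-0.74), the beta subunit of eIF2, were also called lower, and Kdm6b (0.68), the other H3K27 demethylase of the family, was called higher. The alpha subunit gene Eif2s1 was at -0.05 there and not called. Against ESCs it was lower in both PGCLC groups (-0.58 in XGFP+ and -0.62 in XGFP-), as were Eif2s2 (-0.75 and -1.49) and Eif2s3x (-0.75 and -1.11), so that all 3 eIF2 subunit genes were called lower in PGCLCs than in ESCs. Kmt2c and Kmt2d, the methyltransferases of the complexes that contain Kdm6a, were called higher in PGCLCs than in ESCs, by 1.38 and 1.76 in XGFP+ and by 1.43 and 1.64 in XGFP- cells, where Kdm6a itself was not called. Against ESCs, 24.9% of all tested genes were called lower and 25% higher in XGFP+ PGCLCs. In XGFP- PGCLCs these shares were 29.6% and 29.8%. The eIF2 and Kmt2 genes were named after their values were seen.

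Across the 16 libraries, the genes whose log2 total expression was most alike to each member among 11701 candidates were given by Pearson's r, as a description, since libraries of a group share their stage. For Kdm5c these were Dhx29 (r = 0.979), Ei24 and Acly. For Ddx3x they were Nudcd2 (r = 0.995), Tmem79 and Cep76, and for Eif2s3x Ptpmt1 (r = 0.997), Tkt and Rpl7l1. For Kdm6a the highest values were only 0.69, for Zzef1, Tfip11 and Eif5. None of these 12 genes is X-linked.

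The allelic ratio is the share of reads from the mus X, the X that is inactivated in these cells, among all reads that could be assigned to an allele. Kdm6a had ratios of 0.507, 0.552, 0.478 and 0.549 in ESC libraries 1 to 4. EpiLCs had 0.432, 0.535, 0.480 and 0.522, XGFP+ PGCLCs 0.509, 0.586, 0.526 and 0.552, and XGFP- PGCLCs 0.474, 0.499, 0.440 and 0.524. The means were 0.521 ± 0.0353, 0.492 ± 0.0466, 0.543 ± 0.0333 and 0.485 ± 0.0358 (SD, n = 4). All groups overlapped, and in each the mus allele gave close to as many reads as the cas allele, including the XGFP- cells, in which most X-linked genes did not. The ratio of mus to cas reads averaged 1.10 for ESCs and 0.982 for EpiLCs, and among PGCLCs 1.20 for XGFP+ and 0.947 for XGFP- cells.

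No comparison of the Kdm6a ratio was called by limma on the 618 X-linked and chromosome 13 genes tested, whose called share ran from 8.74% (XGFP+ PGCLCs against ESCs) to 36.4% (XGFP- PGCLCs against ESCs). It was 27.3% for EpiLCs against ESCs and for XGFP- against XGFP+ PGCLCs, 17% for XGFP- PGCLCs against EpiLCs and 21.7% for XGFP+ PGCLCs against EpiLCs. Among X-linked genes alone, 60.2% were called in XGFP- PGCLCs against ESCs and 52.8% in XGFP- against XGFP+ PGCLCs. The largest difference of Kdm6a was between XGFP- and XGFP+ PGCLCs, -0.0584 (SE 0.0264, 95% interval -0.116 to -0.00135), with an unadjusted p of 0.0455, 1 of 6 below 0.05, and an FDR of 0.102. The exact two-sided permutation test over libraries gave p = 0.0571 there, where 4 against 4 libraries can reach 0.0286, and none of the 6 comparisons was below 0.05. Neither test used the library numbers. Each XGFP- library was below the XGFP+ library of the same number. With the number as a block in limma, the adjusted p was 0.00701, which did not pass 0.001 either. The median X-linked gene changed by -0.245 in the same comparison, and Kdm6a was above 85.1% of X-linked genes. Against ESCs, Kdm6a differed by -0.0369 in XGFP- PGCLCs (95% interval -0.0939 to 0.0202) where the median X-linked gene differed by -0.306, and by -0.0292 in EpiLCs, where the median was -0.187.

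**Figure D3:**
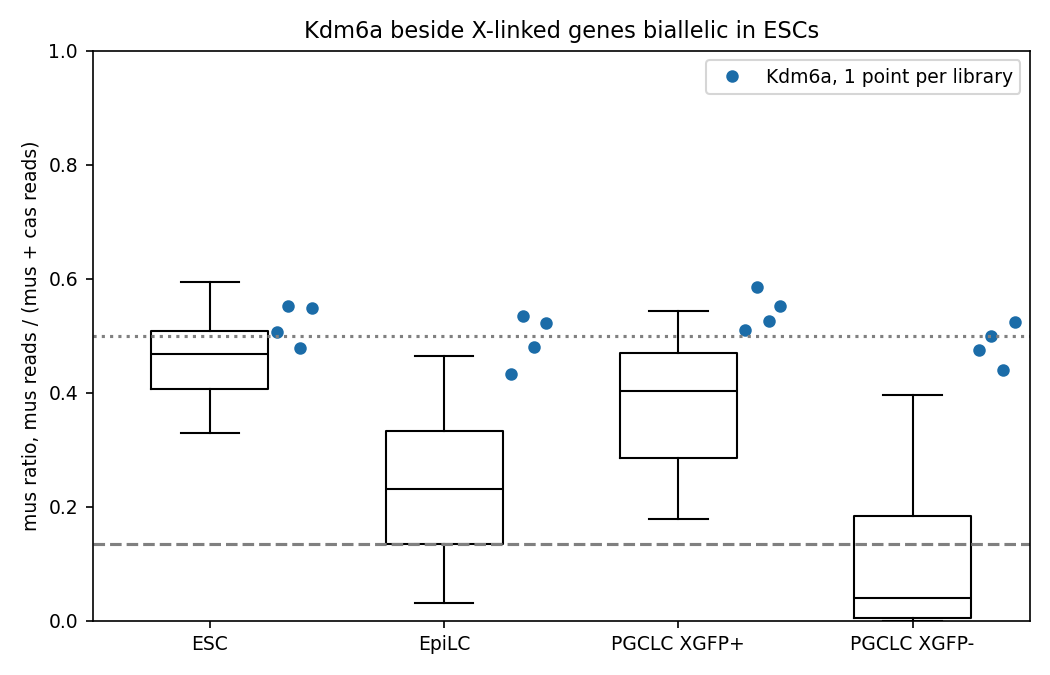
Allelic ratio (y axis, mus reads over mus plus cas reads) of Kdm6a in each library (points) beside the 201 X-linked genes biallelic in ESCs (boxes: quartiles and median of the group mean per gene, whiskers from the 5th to the 95th percentile), by group (x axis). The dotted line is 0.5 and the dashed line 0.135, the level below which the study calls a gene inactive. Kdm6a stays between 0.432 and 0.586 while the median of the boxes falls from 0.469 in ESCs to 0.0403 in XGFP- PGCLCs.

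For a comparison with genes that start from a like state, 201 of the 309 tested X-linked genes had a mean ratio between 0.3 and 0.7 in ESCs. These genes had a median of 0.469 in ESCs and 0.231 in EpiLCs, and of 0.404 in the XGFP+ but 0.0403 in the XGFP- PGCLCs. The ratios carry no coverage, so a ratio of 0 cannot be told from a library without allelic reads of the gene. Of all 1972 genes with a bulk ratio, 1019 were at 0 in every library. In XGFP- PGCLCs, 58 of the 201 genes biallelic in ESCs (28.9%) were above 0.135, and 5 of the 201 had a higher mean than Kdm6a. In EpiLCs 6 and in XGFP+ PGCLCs 10 had a higher mean than Kdm6a, against 35 in ESCs. The 5 that were above Kdm6a in XGFP- PGCLCs were H3f3a-ps1, Pin4, Alg13, Gm8163 and Gm5937. Of these, only Alg13 (mean of 27497 normalized reads) and Pin4 (1081) were expressed above a mean of 100 normalized reads.

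The X-linked genes whose ratios were most like those of Kdm6a over the 16 libraries, among 214 with a mean above 100, were Rbm3 (mean absolute difference 0.0483), Alg13 (0.0617) and Suv39h1 (0.0628). In XGFP- PGCLCs these 3 had mean ratios of 0.394, 0.504 and 0.447. Of the other genes known to escape, 3 had bulk ratios. In XGFP- PGCLCs 5530601H04Rik was at 0.395, Shroom4 at 0.0415 and Firre at 0.0184, and the latter 2 were called lower than in XGFP+ PGCLCs (-0.312 and -0.372). All 5 X-linked genes known to be silenced that had ratios were called lower in the same comparison, where 52.8% of X-linked genes were called. Their ratios in XGFP- PGCLCs included 0.000578 for Phf6, 0.0795 for Pgk1, 0.139 for G6pdx and 0.183 for Rlim. Xist, which is transcribed from the X that it silences, had a mean mus ratio of 0.997 in XGFP- and 0.930 in XGFP+ PGCLCs.

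In every group, Kdm6a libraries 2 and 4 had higher mus ratios than libraries 1 and 3. The means were 0.569 against 0.517 in XGFP+ PGCLCs, 0.512 against 0.457 in XGFP- PGCLCs, 0.529 against 0.456 in EpiLCs and 0.550 against 0.493 in ESCs. This split was noticed after the values were seen, and the labels do not say which clone a library comes from, so whether it follows the clones was not tested. The gap between these pairs was about as wide as the largest gap between groups.

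Multiplying the total by the ratio gives the level of each allele. The mus allele of Kdm6a stood at 4488, 4875, 4386 and 4958 normalized reads in XGFP+ PGCLCs and at 3904, 3826, 3594 and 4291 in XGFP- PGCLCs. All XGFP+ libraries were above all XGFP- libraries. The log2 difference was -0.26 (SE 0.0701, 0.834-fold, limma FDR 0.00459), which did not pass 0.001. The median X-linked gene differed by -2.71 on the same scale. The mus level in XGFP+ PGCLCs was also above that in EpiLCs, at 3715, 4144, 4348 and 4118, without overlap (0.20, FDR 0.0247).

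The cas allele of Kdm6a had 4324, 3451, 3960 and 4031 normalized reads in XGFP+ and 4328, 3836, 4568 and 3893 in XGFP- PGCLCs, which overlapped. The log2 difference was 0.08 (SE 0.125, limma FDR 0.663). Over the 6 comparisons, the cas level had 0 calls and 0 unadjusted p-values below 0.05, and the mus level 0 calls and 2 unadjusted p-values below 0.05, all by limma. Of the 618 genes tested, the share called for the mus level was 36.9% in EpiLCs against ESCs, 53.6% and 37.1% in XGFP- and XGFP+ PGCLCs against EpiLCs, 56.5% and 24.8% in the same cells against ESCs, and 40.1% between them. For the cas level these shares were 37.1%, 53.1%, 46.1%, 48.7%, 37.4% and 18.4%.

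**Figure D4:**
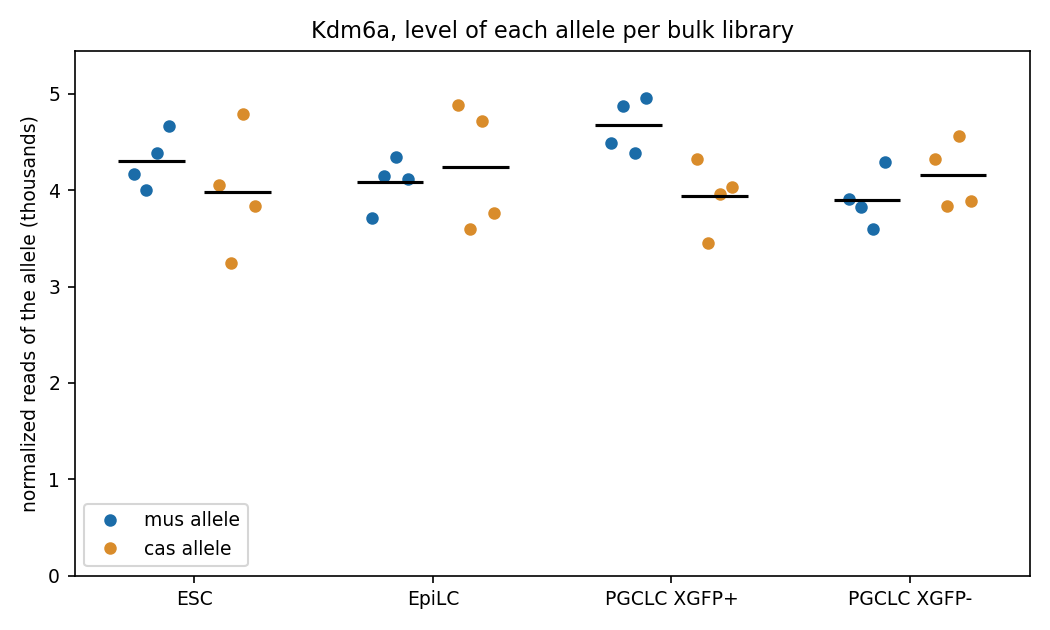
Level of the mus allele (blue) and the cas allele (orange) of Kdm6a in each bulk library, in normalized reads (y axis from 0), by group (x axis); lines are means of 4 libraries. The mus level is highest in XGFP+ PGCLCs, mean 4677, and lowest in XGFP- PGCLCs, mean 3904, while the cas means stay between 3941 and 4242.

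The 2 nearest genes on each side with a bulk ratio and a mean above 100 normalized reads were looked up for their ratio in XGFP- PGCLCs. Around Kdm6a, Fundc1 at 590 kb had a ratio of 0.345 and Maoa 0.0294 towards the centromere, and Gm14636 and Slc9a7 had 0 and 0.00544 towards the telomere. Around Ddx3x, Usp9x at 107.6 kb and Atp6ap2 at 664 kb had 0.239 and 0.268 towards the centromere, and the nearest on the other side, more distant, were again Maoa and Fundc1. Around Eif2s3x, Zfx at 65 kb and AU015836 had 0.142 and 0.000771 towards the centromere, and Klhl15 at 21.7 kb and Apoo 0.0154 and 0.0860 towards the telomere. Around Kdm5c, Ribc1 at 217 kb and Phf8 had 0.112 and 0.0119 towards the centromere, and Tspyl2 at 62.3 kb and Gm26035 0.0803 and 0 towards the telomere. None of the neighbours reached the mus ratio of Kdm6a in XGFP- PGCLCs, and of them only Fundc1, Usp9x, Atp6ap2 and Zfx were above 0.135.

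In single cells, ratios of all 4 genes could be described. The allelic table holds 90.4% of the sorted wells of XGFP+ constitutive (85 cells), 86.8% of XGFPhigh (125 cells), 82.6% of XGFPintermediate and 64.7% of XGFPlow (88 cells), and 23 ESCs. No culture or animal is named for a cell, so each sorted population is 1 sample, no test was made between populations, and the intervals below cover counting error over cells only and do not compare populations. The authors' filter on cells also asked for a minimum share of allelic reads from each genotype, so cells with very few mus reads are not in the table, and the shares below hold for the cells that passed it. The reads carry no molecular identifiers. Reads of Kdm6a, Kdm5c and Eif2s3x in cells with a ratio had medians between 17 and 65.5, and of Ddx3x between 194 and 438, only a share of which can be assigned to an allele, so ratios of 0 or 1 in the first 3 genes can come from few reads.

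**Figure D5:**
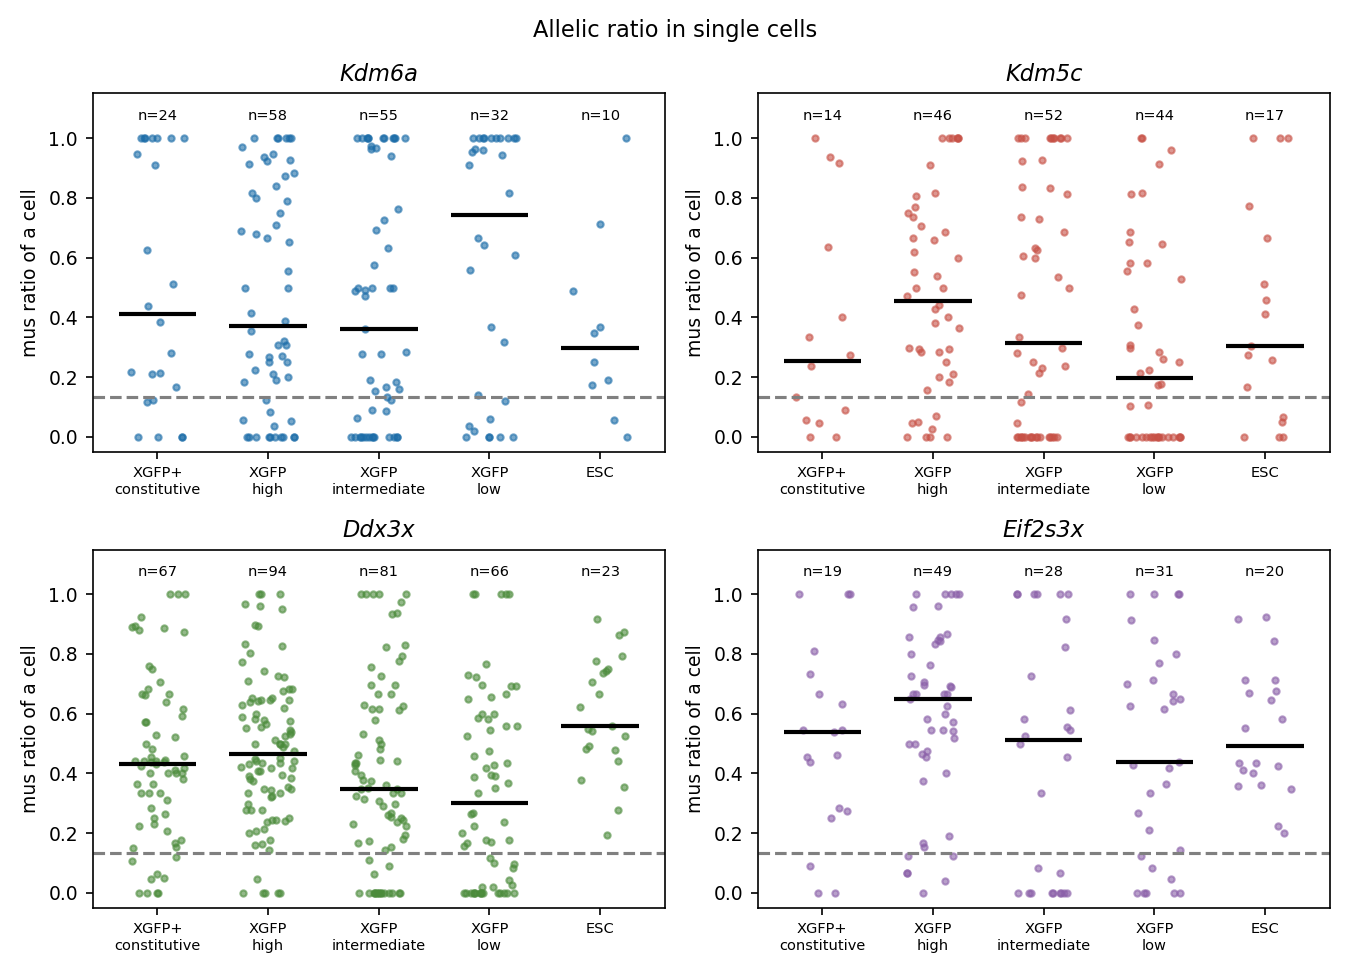
Allelic ratio of each gene (y axis, mus reads over mus plus cas reads) in single cells of the 5 sorted populations (x axis). Each point is a cell, the horizontal bar is the median, n is the number of cells with a ratio, and the dashed line is 0.135. All medians lie above the dashed line, and in XGFPlow cells they run from 0.196 for Kdm5c to 0.742 for Kdm6a.

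Ddx3x had a ratio in the most cells and is read best. Its median was 0.559 in 23 ESCs, 0.432 in 67 XGFP+ constitutive, 0.464 in 94 XGFPhigh, 0.348 in 81 XGFPintermediate and 0.30 in 66 XGFPlow cells. The share of cells above 0.135 was 100% in ESCs, 86.6% in XGFP+ constitutive (95% exact binomial interval 76 to 93.7), 93.6% in XGFPhigh (86.6 to 97.6), 77.8% in XGFPintermediate (67.2 to 86.3) and 65.2% in XGFPlow cells (52.4 to 76.5). In XGFPlow cells 15 of 66 were at 0 and 5 at 1, and 69.7% had reads of both alleles.

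Eif2s3x had medians of 0.493 in 20 ESCs, 0.538 in 19 XGFP+ constitutive, 0.650 in 49 XGFPhigh, 0.512 in 28 XGFPintermediate and 0.438 in 31 XGFPlow cells. In XGFPlow cells 74.2% were above 0.135 (95% exact interval 55.4 to 88.1), against 87.8% in XGFPhigh cells (75.2 to 95.4). The share was 60.7% in XGFPintermediate (40.6 to 78.5), 84.2% in XGFP+ constitutive cells (60.4 to 96.6) and 100% in ESCs (83.2 to 100). Both alleles were read in 71% of XGFPlow cells and 46.4% of XGFPintermediate cells.

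Kdm5c had the lowest median of the 4 genes in XGFPlow cells, 0.196 in 44 cells, of which 18 were at 0, and 54.5% were above 0.135 (95% exact interval 38.8 to 69.6). The 95% interval of this median ran from 0 to 0.308 and so held 0.135. Kdm5c medians were 0.304 in 17 ESCs, 0.255 in 14 XGFP+ constitutive, 0.456 in 46 XGFPhigh and 0.315 in 52 XGFPintermediate cells. The share above 0.135 was 82.6% in XGFPhigh (68.6 to 92.2) and 63.5% in XGFPintermediate cells (49 to 76.4). It was 70.6% in ESCs (44 to 89.7) and 57.1% in XGFP+ constitutive cells (28.9 to 82.3), the latter close to the share in XGFPlow cells.

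Kdm6a had medians of 0.299 in 10 ESCs, 0.411 in 24 XGFP+ constitutive, 0.371 in 58 XGFPhigh, 0.360 in 55 XGFPintermediate and 0.742 in 32 XGFPlow cells. The high median of XGFPlow cells rested on cells with 1 allele: 10 of 32 were at 1 and 5 at 0, and the 95% interval of the median was 0.140 to 1.00. The share above 0.135 was 71.9% in XGFPlow (53.3 to 86.3), 65.5% in XGFPintermediate (51.4 to 77.8), 74.1% in XGFPhigh (61 to 84.7) and 75% in XGFP+ constitutive cells (53.3 to 90.2).

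Set beside the other X-linked genes with a ratio in at least 10 cells, the 4 genes took different places in XGFPlow cells. All 4 had a median above 0.135, which 98 of 210 genes (46.7%) had, and the median gene was above 0.135 in 45.3% of cells. For Kdm5c the 95% interval of the median held 0.135. By mean ratio in XGFPlow cells, 2 of the 210 genes were higher than Kdm6a (0.597), 13 higher than Eif2s3x (0.477), 75 higher than Ddx3x (0.346) and 96 higher than Kdm5c (0.294). By share of cells above 0.135, 43 genes were higher than Kdm6a, 38 than Eif2s3x, 59 than Ddx3x and 81 than Kdm5c. The places differed in other populations: in XGFPhigh cells 95% of genes had a lower mean than Eif2s3x, 55.7% a lower one than Ddx3x, 52.1% than Kdm5c and 45.7% than Kdm6a, and in ESCs 18% had a lower mean than Kdm6a. In XGFPhigh cells, 96.3% of genes had a median above 0.135, and in XGFP+ constitutive cells 98.1%. In XGFPintermediate cells it was 61.1% of genes. These ranks are descriptions of 1 sample each.

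Genes of the other lists gave a scale for these shares in XGFPlow cells. Of other genes known to escape, 1810030O07Rik was above 0.135 in 93.3% of cells, 2610029G23Rik in 89.5% and Utp14a in 66.7%. However, 1810030O07Rik was read mostly as mus in every population, with medians of 0.869 in ESCs, 0.838 in XGFP+ constitutive and 1.00 in XGFPlow cells. Its share therefore cannot be read as a level of escape. Of genes known to be silenced, Phf6 was above it in 3.57%, G6pdx in 42.9%, Atrx in 44.3%, Rlim in 51.6%, Pgk1 in 69.1% and Ogt in 72.8%. The shares of the 4 genes, 54.5% to 74.2%, overlapped with the upper end of the second list.

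The ratio of a member was also set beside the mean ratio of the other X-linked genes of the same cell. In XGFPlow cells Eif2s3x was above that mean in 71% of 31 cells, Kdm6a in 65.6% of 32, Ddx3x in 53% of 66 and Kdm5c in 45.5% of 44. In XGFPhigh cells the shares were 71.4% for Eif2s3x, 46.6% for Kdm6a, 52.1% for Ddx3x and 50% for Kdm5c, so that the share of Eif2s3x was high in both populations. In XGFPintermediate cells, in the same order, they were 60.7%, 50.9%, 54.3% and 50%, and in XGFP+ constitutive cells 57.9%, 50%, 41.8% and 28.6%.

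Total expression in single cells was given as the mean CPM (reads of a gene scaled to the same total in every cell) over cells with at least 4000 genes, 10000 reads and at most 5% mitochondrial reads (93.6% of XGFP+ constitutive, 86.8% of XGFPhigh, 88.9% of XGFPintermediate and 89% of XGFPlow wells, and all 24 ESCs). In that order, Ddx3x had means of 541, 422, 281, 370 and 343 CPM. Over summed reads, with exact Poisson intervals at 95% that cover counting error only, it stood at 397 CPM (392 to 401) in XGFPhigh and 340 CPM (336 to 344) in XGFPlow cells. Reads without molecular identifiers are not independent counts, so these intervals can be too narrow and do not compare the populations. The quartiles of Ddx3x over cells overlapped, at 269 to 498 CPM in XGFPhigh and 177 to 455 CPM in XGFPlow cells. Eif2s3x had 36.9, 30.7, 18.9, 25.9 and 61.9 CPM and was highest in ESCs. Kdm5c had 51.2, 44.4, 44.6, 39.4 and 31.6 CPM, and Kdm6a 44.8, 40.8, 54.9, 35.9 and 25.2 CPM. By median over cells, Kdm6a stood at 37.9, 29.1, 24.9, 16.2 and 17.8 CPM, so XGFPintermediate cells were highest by the mean only.

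XGFP+ constitutive cells had the highest mean of the rOvary populations for Ddx3x, Eif2s3x and Kdm5c. All of them were sequenced in 1 lane, while most other rOvary cells were in another lane and had more reads (medians of 636623, 645474.5 and 640902 in XGFPhigh, XGFPintermediate and XGFPlow cells against 354149). In the shared lane, where 14 XGFPhigh, 16 XGFPintermediate and 15 XGFPlow cells remained, XGFP+ constitutive cells were highest for all 4 genes. There Ddx3x stood at 541, 290, 280 and 299 CPM, Kdm6a at 44.8, 17.3, 7.09 and 29.2, Kdm5c at 51.2, 17.1, 36.6 and 17.5 and Eif2s3x at 36.9, 19, 10.2 and 9.03 CPM. Allelic ratios in that lane rested on few cells. In XGFPintermediate cells the median of Kdm5c was 0 in 7 cells, with 42.9% above 0.135, and that of Ddx3x 0.615 in 11 cells, and in XGFPhigh cells that of Ddx3x was 0.565 in 7 cells. Without the filter on cells, the mean of Kdm6a in XGFPlow cells was 93.3 CPM. The 10 empty wells held 0 reads of all 4 genes.

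The rOvary cells were mostly germ cells by their markers. Of the cells kept, 86.4% of XGFP+ constitutive, 94.4% of XGFPhigh, 90.6% of XGFPintermediate and 75.2% of XGFPlow cells had Dazl above 1 on the scale of the natural log of 1 + reads per 10000 reads, and the summed CPM of 4 germ cell markers had medians from 2782 to 4639. The summed CPM of 6 gonadal somatic markers had a median of 0 in all 4 rOvary populations. In XGFPlow cells it was above 100 CPM in 1.65% of cells, and with cells limited to those above this Dazl limit, all 4 genes still had medians above 0.135.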

How the data were processed

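The bulk totals were deposited as a size-factor-normalized signal: per the labels and the study's methods, the authors aligned reads to mm10 with STAR and WASP on a SNP-masked genome, counted genes with HTSeq 0.6.1 and divided by DESeq2 1.16 size factors. Whole reads were recovered for 100% of values within 0.01. The bulk allelic ratio is a fraction deposited by the authors, mus reads over mus plus cas reads, with no coverage, so its depth is unknown. Single-cell read counts (SMART-seq, no molecular identifiers) and the fraction of mus reads per gene and cell were deposited by the authors, who kept cells and genes with enough allelic reads and cells with a minimum share of them from each genotype. The study's text puts its Dazl limit on a log2 scale, while the limit used here is on a natural log scale and so is stricter. 4 columns of neural progenitor cells were not used, and no doublet caller was run on sorted single wells.

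Totals were tested as log2(value + 1) with limma 3.58.1 (R 4.3.3, trend, all 16 libraries, mean above 10, Benjamini-Hochberg FDR below 0.001), ratios with limma over 618 genes, and single values with an exact permutation test. Allele levels are total times ratio. edgeR 4.0.16 and DESeq2 1.42.0 on recovered reads, other pseudocounts, filters, scalings and samples, the replicate block and an FDR of 0.05 were alternatives. The main limma fits of totals, mus ratio and mus level and the edgeR and DESeq2 fits were tested on simulated data. The cas level, the permutation test and the other alternatives were not. The members and lists were chosen with earlier results of these data known. List genes are named for the 2 highest and 2 lowest values, or all where a list holds 5 or fewer, except 1 list gene whose values are not reported here; other named genes (neighbours, eIF2 and Kmt2 genes, genes above Kdm6a) were chosen after their values were seen.

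Replicate numbers come from the labels. Same-numbered XGFP- and XGFP+ PGCLC libraries deviated together in total expression (correlations 0.253, 0.135, 0.200 and 0.307), all above the cut of 0.1 used here. In no other comparison of totals were all 4 above it, although those of EpiLCs with ESCs were all positive (0.0409 to 0.110). With the replicate block, no call of a member changed. In single cells each population is 1 sample and was described without a test. Intervals are 95% exact binomial or Poisson (scipy 1.17.1).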

Additional observations from a re-analysis of the deposited data

Results flagged for a closer look

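In XGFP- PGCLCs, total expression of Kdm6a in library 2 was 7662 normalized reads, apart from the other 3 libraries at 8162 to 8233. The gap to the nearest library was 0.876 of the group's whole range, above Dixon's 95% critical value for 4 samples. It was 1 of 28 sets of 4 libraries examined, and chance flags about 1 in 20 sets.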

How the results depend on the processing

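Calls of Kdm6a, Ddx3x and Eif2s3x in total expression at an FDR below 0.001 were kept under the alternatives run, except that DESeq2 also called Ddx3x between XGFP- and XGFP+ PGCLCs. Only Kdm5c lost calls. With only the groups compared in the fit, 1 gene in place of 2 was called for EpiLCs against ESCs and 1 for XGFP- against XGFP+ PGCLCs, and 1 for the latter with quantile normalization. Leaving out 1 library at a time gave 1 to 2 called genes in both comparisons, with Kdm5c between -0.28 and -0.23 and between -0.27 and -0.22. Its adjusted p (limma, edgeR or DESeq2) ran over 19 settings from 5.72e-06 to 0.00174 and from 2.35e-05 to 0.00455. At an FDR of 0.05, the mus level of Kdm6a was called in 1 comparison of XGFP+ PGCLCs with EpiLCs and 1 of XGFP- with XGFP+ PGCLCs.

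Uncalled Kdm6a values near 0 changed sign. With quantile normalization its total differed by 0.029 for XGFP- PGCLCs against EpiLCs and 0.093 against ESCs, and with edgeR by -0.0040 for EpiLCs against ESCs. Without 1 library, its total ran from -0.054 to 0.059 for EpiLCs, -0.0016 to 0.11 for XGFP+ and -0.098 to 0.015 for XGFP- PGCLCs against ESCs, and its mus ratio from -0.0278 to 0.00705 for XGFP- PGCLCs against EpiLCs. The cas level ran from -0.095 to 0.052 there, and against ESCs from -0.00083 to 0.19 for EpiLCs, -0.099 to 0.088 for XGFP+ and -0.021 to 0.17 for XGFP- PGCLCs. The cause was not tested.

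With the replicate block, no member's call changed. The mus ratio of Kdm6a between XGFP- and XGFP+ PGCLCs, -0.0584, had an adjusted p of 0.00701 by limma with the block against 0.102 without it. In single cells, all 4 genes kept XGFPlow medians above 0.135 among cells with Dazl, in the main lane, among cells passing quality limits and by the mean. With at least 100 reads of the gene 2 of 4 had enough cells, and in the shared lane 0, so no value was given. In XGFPintermediate cells of the shared lane, the median of Kdm5c went from 0.315 to 0 (7 cells) and that of Ddx3x from 0.348 to 0.615 (11 cells).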
